A study of Mus musculus with 8 samples.

Results

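In the distal colon of mice, 9 genes of the bone morphogenetic protein (BMP) pathway were followed: the ligands Bmp2, Bmp3, Bmp4 and Bmp7, the secreted antagonists Grem1 and Nog, the receptor Bmpr1a, and the target genes Id1 and Id3. They were chosen by symbol, all 9 were found among the 52143 genes of the deposited table, and no symbol occurred in more than 1 row. Tissue came from 4 samples of control mice (Villin1-Cre-ERT littermates) and 4 of Siglec-XII mice (SIGLEC12-Villin1-Cre-ERT), which carry 1 copy of a human SIGLEC12 cassette in the ROSA26 locus behind a CAG promoter and a floxed EGFP stop. All mice were females of 8 weeks at the first of 5 daily injections of tamoxifen (10 mg/ml stock), and colons were taken 7 days after the last injection, on day 12 of the scheme. Both groups therefore carried Cre-ERT and received tamoxifen. The Villin1 promoter confines Cre-ERT to the intestinal epithelium, whereas the RNA was made from the whole distal colon. The labels list 4 samples per group and the design text speaks of 3 mice, while by the paper's Methods every sample gave 3 libraries as technical replicates. The p-values therefore measure the spread between these samples, which may in part be technical.

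BMPs are secreted ligands of the TGF-β superfamily. They bind type I receptors such as Bmpr1a together with type II receptors, which leads to phosphorylation of Smad1, Smad5 and Smad9, entry of these into the nucleus with Smad4, and transcription of target genes such as Id1 and Id3. In the colon BMP signaling is known to be high toward the luminal surface, where it favors differentiation, and low at the crypt base, where antagonists from the mesenchyme and the muscle layer, Grem1 among them, hold it down. Bmp3 is an unusual member of the ligand family that can oppose other BMPs.

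Values are in TPM, a transcript level that is corrected for transcript length and scaled to the same sum in every sample, so that levels can be compared between genes. Differences between groups are Siglec-XII minus control on the log2(TPM + 1) scale, which understates the change of low genes. Group differences were tested with limma over 13164 genes, those that reached 1 TPM in 4 or more samples. Of the 9 genes, 7 passed this filter, while Bmp7 and Nog did not and are described by their values. Siglec-XII samples 3 and 4 stood apart from the rest, with their median gene 0.23 and 0.37 log2 units under the mean of all samples. The median tested gene differed by -0.15 between the groups and 78.1% of tested genes had a difference below 0, a share that was 38.5% after each sample was centred on its median. Centring adds 0.21 to every difference. The epithelial markers Epcam, Cdh1, Krt8, Krt18, Krt19, Krt20, Vil1 and Cldn7 summed to between 9407 and 13690 TPM in the 8 samples, and none of them was at 0.

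None of the 7 tested BMP genes had an adjusted p of 0.05 or less (limma with Benjamini-Hochberg adjustment over all tested genes), where the smallest was 0.515. Across all tested genes, 0.038% passed this limit. One of the 7, Bmp4, had an unadjusted P of 0.05 or less, against 8.87% of all tested genes (7.67% lower and 1.19% higher in Siglec-XII samples), so this count is near the background. Bmp4 was again the 1 gene after quantile normalization, where 8.45% of all tested genes were at this limit. When a fold-change of 2 was required as well, 0 of the 7 genes passed with limma, against 0.919% of all tested genes, and with a pseudocount of 0.1 in place of 1 Bmp4 passed, as did 1.55% of all tested genes. The groups overlapped in all 9 genes, while they did not overlap in 5.11% of all tested genes and, among genes under the filter but above 0, such as Bmp7 and Nog, in 2.59%. Counts of called genes moved with the setting in the whole table too. With array weights, 3 of the 7 genes (Bmp4, Grem1 and Id1) and 14.1% of all tested genes had an unadjusted P of 0.05 or less. Without Siglec-XII sample 1, Bmp4 and Id1 did so beside 18% of all tested genes, and these were also the 2 of the 7 whose groups did not overlap, beside 12.5% of all tested genes. The median difference of the 7 genes was 0.02, beside -0.15 over all tested genes.

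The 9 genes lay at widely different levels in controls, as the plot of TPM by gene shows. Id1 was highest, with 392 ± 44.8 TPM (SD, n = 4), at percentile 97.3 of the tested genes. Id3 followed with 52.0 ± 7.57, Bmp2 with 33.7 ± 11.9, Bmpr1a with 18.8 ± 2.58 and Bmp3 with 6.76 ± 1.89. The remaining members were scarce: Grem1 was at 1.82 ± 0.46, Bmp4 at 1.27 ± 0.19, Bmp7 at 0.733 ± 0.257 and Nog at 0.210 ± 0.068 (all SD, n = 4). Among neighbors in this order, the ranges over the 4 controls overlapped between Id3 and Bmp2, between Bmp2 and Bmpr1a, and between Grem1 and Bmp4, although within each of the 8 samples the first of each pair was the higher. Bmp4 lay at percentile 3.1 of the tested genes and Bmp2 at percentile 73.8, so the ligand transcripts of this tissue were chiefly Bmp2.

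**Figure D1:**
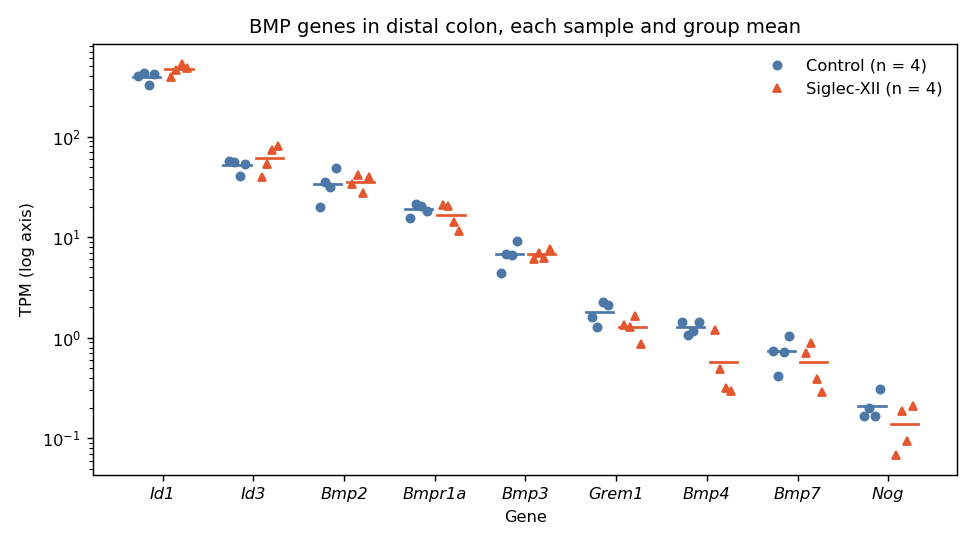
TPM on a log axis of the 9 BMP genes in each control sample (circles) and Siglec-XII sample (triangles), with horizontal lines at the group means. Levels run from about 400 TPM for Id1 to about 0.2 TPM for Nog, and the groups overlap in every gene, with 3 of 4 Siglec-XII samples under all controls in Bmp4.

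Among the ligands, Bmp2, which the surface epithelium and the mesenchyme of the gut are both known to make, was listed at 19.7, 35.1, 31.6 and 48.7 TPM in controls 1 to 4 and at 34.1, 41.1, 27.3 and 40.0 TPM in Siglec-XII samples 1 to 4. Control 1 was the lowest and control 4 the highest of all samples, so the controls enclosed the Siglec-XII samples. The difference was 0.13 with a 95% interval from -0.44 to 0.69 (limma, adjusted p = 0.81), which leaves room for folds between 0.737 and 1.62. After median centring it was 0.34 (unadjusted P = 0.183 from limma), and without control 1 it was -0.10.

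Bmp3 was at 4.45, 6.80, 6.70 and 9.08 TPM in controls 1 to 4 and at 6.12, 6.93, 6.19 and 7.70 TPM in Siglec-XII samples 1 to 4. As with Bmp2, control 1 was lowest and control 4 highest, and the controls enclosed the other group. The difference was 0.02 (95% interval -0.40 to 0.45, adjusted p = 0.953 from limma), 0.24 after median centring and -0.13 without control 1, so its sign depended on the samples and the scaling.

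Bmp4, which subepithelial mesenchymal cells are known to supply, was at 1.44, 1.06, 1.16 and 1.44 TPM in controls 1 to 4 and at 1.20, 0.487, 0.320 and 0.295 TPM in Siglec-XII samples 1 to 4. Siglec-XII sample 1 lay within the control range, and the other 3 lay below every control. The means were 1.27 ± 0.19 and 0.574 ± 0.422 TPM (SD, n = 4 each), a ratio of 0.451. On the log2(TPM + 1) scale the difference was -0.56 with a standard error of 0.186 and a 95% interval from -0.98 to -0.14 (limma, unadjusted P = 0.0145, adjusted p = 0.515, and from 0.213 to 0.991 over the alternatives). Bmp4 passed the filter through the 4 controls and Siglec-XII sample 1, since the other 3 samples were under 1 TPM, and the controls alone would have sufficed. The difference was -0.35 after median centring (unadjusted P = 0.0611 from limma) and -0.55 after quantile normalization (unadjusted P = 0.0301 from limma). Without Siglec-XII samples 3 and 4 it was -0.33 (unadjusted P = 0.157 from limma), and without Siglec-XII sample 1 it was -0.73. It was below 0 in all 16 alternatives that kept the gene.

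Bmp7 was under the filter, with 0.738, 0.421, 0.723 and 1.05 TPM in controls 1 to 4 and 0.701, 0.893, 0.392 and 0.288 TPM in Siglec-XII samples 1 to 4. Siglec-XII samples 3 and 4 were the lowest of the 8, and samples 1 and 2 lay inside the control range. In a fit with no filter its interval was from -0.53 to 0.23 (limma, adjusted p = 0.708).

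Because ratios within a sample do not depend on the scaling between samples, the ligands were also set against each other. The 4 ligands summed to between 26.3 and 60.2 TPM in controls and between 34.2 and 49.4 TPM in Siglec-XII samples. Bmp2 made up from 74.8% to 80.9% of this sum in controls and from 79.8% to 83.2% in Siglec-XII samples. Bmp4 made up 5.46%, 2.45%, 2.90% and 2.38% in controls 1 to 4 and 2.84%, 0.986%, 0.934% and 0.611% in Siglec-XII samples 1 to 4. The TPM ratio of Bmp2 to Bmp4 was 13.7, 33.1, 27.1 and 33.9 in controls and 28.5, 84.3, 85.5 and 136 in Siglec-XII samples in the same order, so that sample 1 again lay among the controls and the other 3 above them. These shares and ratios were computed from genes chosen with their values known and are given without a test.

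**Figure D2:**
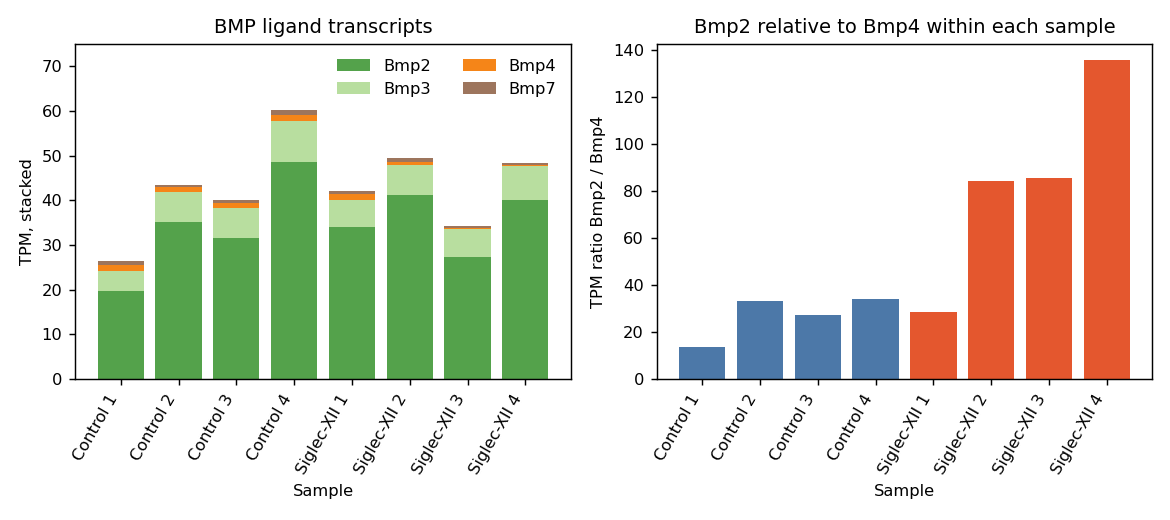
Left, TPM of Bmp2, Bmp3, Bmp4 and Bmp7 stacked for each of the 8 samples. Right, the TPM ratio of Bmp2 to Bmp4 in each sample, which runs from 13.7 to 33.9 in controls (blue) and is 28.5 in Siglec-XII sample 1 and 84.3 to 136 in the other 3 (red).

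Bmp2 and Bmp4 are close relatives, and their transcripts were compared to see whether reads of one could be assigned to the other. Their coding sequences, 1182 and 1224 bases long, were identical at 69.5% of 1151 aligned bases. The longest run that both share is printed in capitals with the 33 coding bases on either side of it, from the transcripts ENSMUST00000028836.6 (Bmp2) and ENSMUST00000074077.11 (Bmp4) of GENCODE M21.
Bmp2: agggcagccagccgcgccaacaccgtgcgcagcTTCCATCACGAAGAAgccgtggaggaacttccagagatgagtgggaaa
Bmp4: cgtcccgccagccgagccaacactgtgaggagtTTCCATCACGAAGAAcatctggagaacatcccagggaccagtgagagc
The run of 15 bases is shorter than the windows of 31 bases that kallisto matches by default, and 0 of 3525 windows of Bmp2 occur in a transcript of another gene. Bmp4 shares 4.87% of its 2034 windows with others, 59 of them with Gm15217, a gene annotated on the opposite strand across the same locus. Gm15217 was listed at 0 in all 8 samples, and Gm15222, an antisense transcript there, at no more than 0.054 TPM. Whether kallisto used strand is not given in the sources used here.

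On GRCm38, Bmp4 (ENSMUSG00000021835) spans bases 46383520 to 46390669 of chromosome 14 (minus strand), and Grem1 (ENSMUSG00000074934), an antagonist that binds Bmp2 and Bmp4, spans bases 113746164 to 113758646 of chromosome 2 (minus strand). The 250 bases before the RefSeq start of each (GRCm38.p6, read 5′ to 3′ on the minus strand) are shown, because Bmp4 had the largest difference of the 7 genes and Grem1 the next in the same direction. Capitals mark matches to GTCTG or CAGAC, the SMAD box on either strand, and to GGCGCC, a GC-rich SMAD site.
Bmp4, chr14:46390670-46390919: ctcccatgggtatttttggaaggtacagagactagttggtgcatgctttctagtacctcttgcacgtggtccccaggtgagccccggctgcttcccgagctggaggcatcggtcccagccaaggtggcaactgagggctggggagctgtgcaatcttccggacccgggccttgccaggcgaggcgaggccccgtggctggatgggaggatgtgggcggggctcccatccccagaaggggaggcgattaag
Grem1, chr2:113758649-113758898: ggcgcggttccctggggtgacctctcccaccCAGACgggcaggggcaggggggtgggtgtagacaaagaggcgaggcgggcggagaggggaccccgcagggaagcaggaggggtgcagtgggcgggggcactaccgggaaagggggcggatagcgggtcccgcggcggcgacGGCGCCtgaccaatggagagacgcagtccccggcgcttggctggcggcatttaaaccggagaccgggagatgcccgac
The Bmp4 window held 0 matches. The Grem1 window held 1 SMAD box, beginning 219 bases before the start, and 1 GC-rich site, beginning 78 bases before it. Of 32851 windows of the same length before RefSeq starts, 42.2% hold a SMAD box and 9.6% a GC-rich site, and a match of letters is not a bound site.

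Among the antagonists, Grem1 was at 1.60, 1.29, 2.29 and 2.10 TPM in controls 1 to 4 and at 1.33, 1.28, 1.65 and 0.860 TPM in Siglec-XII samples 1 to 4. All 4 Siglec-XII samples were under the control mean, yet 2 of them, samples 1 and 3, were above control 2. The difference was -0.30 (95% interval -0.69 to 0.08, unadjusted P = 0.105, adjusted p = 0.515 from limma) and shrank to -0.09 after median centring. Nog, which encodes noggin, was at 0.165, 0.199, 0.167 and 0.309 TPM in controls 1 to 4 and at 0.068, 0.186, 0.094 and 0.212 TPM in Siglec-XII samples 1 to 4. Siglec-XII samples 1 and 3 were the lowest of the 8 and samples 2 and 4 lay within the control range. In a fit with no filter the interval for Nog was from -0.22 to 0.046 (limma, adjusted p = 0.691). The ratio of Grem1 to Bmp4 was from 1.11 to 1.97 in controls and was 1.12, 2.62, 5.16 and 2.92 in Siglec-XII samples 1 to 4.

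The receptor Bmpr1a, the type I receptor that Bmp2 and Bmp4 use, was at 15.6, 21.5, 20.2 and 18.1 TPM in controls 1 to 4 and at 20.98, 20.2, 14.3 and 11.6 TPM in Siglec-XII samples 1 to 4. Siglec-XII samples 3 and 4 were the lowest of the 8 and samples 1 and 2 lay within the control range. The difference of -0.19 (95% interval -0.63 to 0.26, adjusted p = 0.648 from limma) became 0.03 after median centring, 0.0037 after quantile normalization and 0.13 without Siglec-XII samples 3 and 4. Bmpr1a followed the general shift of the samples: 2981 of the tested genes had a Pearson r of at least 0.9 with it over the 8 samples. Of its windows of 31 bases, 4.39% are shared with the antisense transcript Gm17110, which was at most 0.28 TPM.

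The targets Id1 and Id3 encode inhibitors of DNA binding, helix-loop-helix proteins that pair with basic helix-loop-helix factors and keep them from DNA. Id1 was at 399.7, 424, 327 and 417.5 TPM in controls 1 to 4 and at 393, 461, 531 and 482.5 TPM in Siglec-XII samples 1 to 4. Siglec-XII samples 2, 3 and 4 were above every control and sample 1 was inside the control range. The means were 392 ± 44.8 and 467 ± 57.5 TPM (SD, n = 4 each), and the difference was 0.25 (standard error 0.121, 95% interval -0.02 to 0.52, unadjusted P = 0.0683, adjusted p = 0.515 from limma). It was 0.46 after median centring (unadjusted P = 0.0366 from limma, where 10.8% of all tested genes were at or under 0.05, 8.64% higher and 2.16% lower) and 0.13 without Siglec-XII samples 3 and 4, and it was above 0 in all 17 alternatives.

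Id3 was at 57.7, 56.0, 41.0 and 53.2 TPM in controls 1 to 4 and at 39.4, 53.4, 73.7 and 80.3 TPM in Siglec-XII samples 1 to 4. Siglec-XII samples 3 and 4 were the highest of the 8 and sample 1 was the lowest. The difference was 0.20 (95% interval -0.30 to 0.70, adjusted p = 0.664 from limma), 0.41 after median centring and -0.17 without Siglec-XII samples 3 and 4, so its sign rested on those samples. In both targets, then, the highest values were in the samples whose median gene was lowest. The ratio of Id1 to Id3 was from 6.92 to 7.98 in controls and was 9.98, 8.64, 7.21 and 6.01 in Siglec-XII samples 1 to 4.

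Id1 and Id3 do not share windows of 31 bases with each other or with any other gene (0 of 904 and 0 of 1248), so their reads could be told apart. Their coding sequences, 444 and 357 bases long, were identical at 69.0% of 355 aligned bases. The longest shared run, of 11 bases, is in capitals with the 33 coding bases on either side of it, from ENSMUST00000038368.8 (Id1) and ENSMUST00000008016.2 (Id3) of GENCODE M21.
Id1: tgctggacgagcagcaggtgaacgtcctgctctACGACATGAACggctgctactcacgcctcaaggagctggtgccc
Id3: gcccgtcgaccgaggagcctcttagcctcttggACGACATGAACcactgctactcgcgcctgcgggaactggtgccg
Id1 (ENSMUSG00000042745) lies on the plus strand of chromosome 2 from 152736251 to 152737410, and Id3 (ENSMUSG00000007872) on the plus strand of chromosome 4 from 136143497 to 136145755. Bmp2, on the plus strand of chromosome 2 from 133552159 to 133562885, and Bmp7, on its minus strand from 172868012 to 172940321, share that chromosome with Id1 and Grem1. Bmp3 is on chromosome 5 (plus strand, 98854415 to 98884396), Nog on chromosome 11 (minus strand, 89300638 to 89302332) and Bmpr1a on chromosome 14 (minus strand, 34410734 to 34503341).

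**Figure D3:**
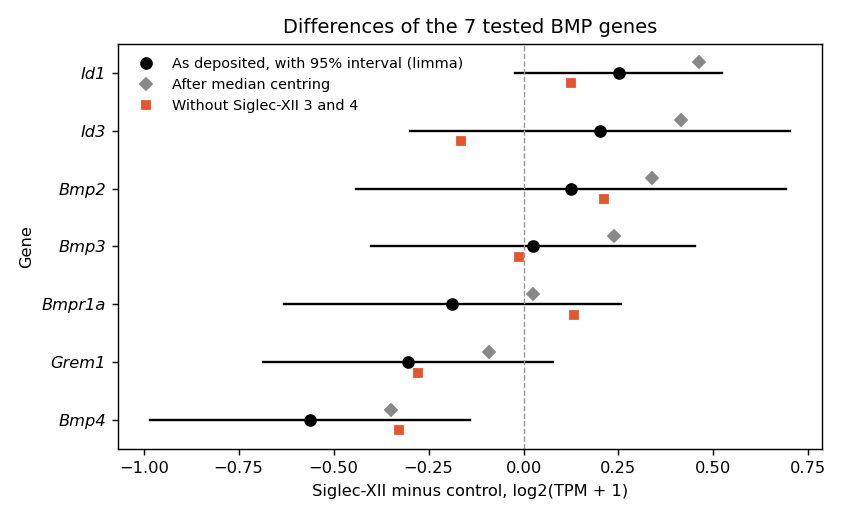
Siglec-XII minus control on the log2(TPM + 1) scale for the 7 tested genes, as deposited (black points, with 95% intervals from limma), after median centring (grey diamonds) and without Siglec-XII samples 3 and 4 (red squares). Only the interval of Bmp4 lies wholly on 1 side of 0, and centring moves every gene by 0.21 to the right.

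The plot of deviations by sample sets these genes against the median gene. In Siglec-XII sample 1, Bmp4, Id1 and the median gene were all close to the control mean, and Id3 was below it. In samples 3 and 4 the median gene, Bmp4, Grem1 and Bmpr1a were below the control mean, Bmp4 by the most, and Id1 and Id3 were above it.

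**Figure D4:**
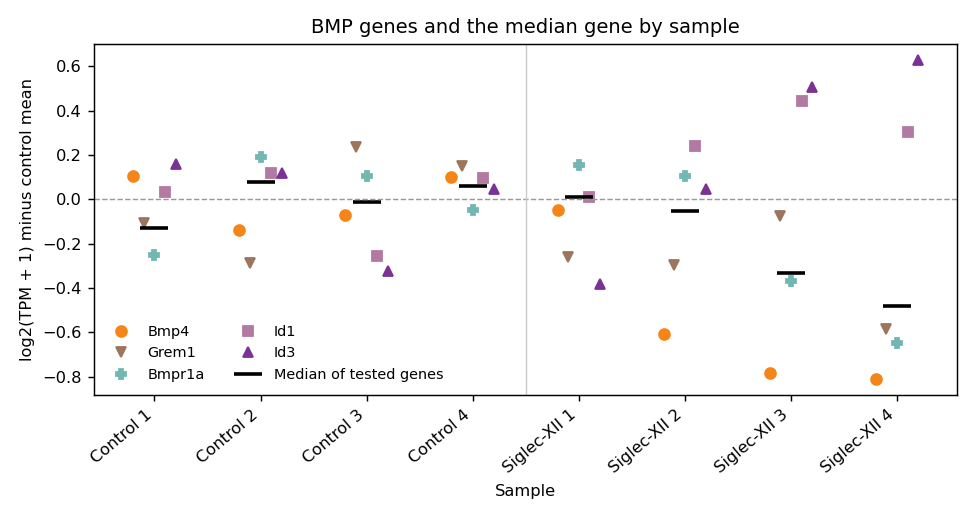
log2(TPM + 1) of Bmp4, Grem1, Bmpr1a, Id1 and Id3 in each sample minus the control mean of that gene, with a black bar for the median of the tested genes. Id1 and Id3 lie above 0 in Siglec-XII samples 3 and 4 while the median gene and Bmp4 lie below it.

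The gene most alike to each tested BMP gene in pattern, by Pearson r of log2(TPM + 1) over the 8 samples, was Elmod2 for Bmp2 (0.98), Sun2 for Bmp3 (0.96), Nras for Bmp4 (0.98), Elp6 for Grem1 (0.96), Kansl1 for Bmpr1a (0.9985), Pole4 for Id1 (0.97) and Msantd1 for Id3 (0.99). These describe 8 libraries that share 1 scaling and a common shift, and each is the highest of 13164 genes compared. From 10 genes for Id1 to 122 for Bmp4 reached an r of 0.9, leaving aside Bmpr1a.

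The rest of the pathway was taken from a list of 62 further symbols, 60 of which had a row (Hjv and Znf423 had none under these names). Of these, 30 passed the filter, and 3 (Bmp10, Bmp15 and Gdf2) were listed at 0 in every sample. None of the 30 tested genes had an adjusted p of 0.05 or less (limma), and 3 had an unadjusted P of 0.05 or less, all lower in Siglec-XII samples, where 7.67% of all tested genes were lower at this limit. The difference was below 0 in 25 of the 30, against 78.1% of all tested genes, and in 12 after median centring, when Bmp8a, Nbl1, Smad7, Smurf2 and Tob1 had an unadjusted P of 0.05 or less, all with differences above 0. In that fit 10.8% of all tested genes were at this limit, 8.64% with differences above 0. Their median difference was -0.20, beside -0.15 over all tested genes. Without Siglec-XII samples 3 and 4, 0 of the 30 reached an unadjusted P of 0.05 from limma (2.75% of all tested genes) and 16 were below 0.

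The 3 genes were Twsg1, Id4 and Dlx5. Twsg1, whose product binds BMPs and chordin outside the cell, was at 18.1 TPM on average in controls and 13.4 in Siglec-XII samples, a difference of -0.41 (95% interval -0.77 to -0.05, adjusted p = 0.515 from limma). Id4, of the same family as Id1 and Id3, was at 1.42, 1.32, 1.36 and 1.75 TPM in controls 1 to 4 and at 1.14, 1.08, 0.967 and 0.738 TPM in Siglec-XII samples 1 to 4, without overlap of the groups (4.06% of all tested genes were lower in this way), a difference of -0.32 (adjusted p = 0.515 from limma). Its direction was thus opposite to that of Id1 and Id3, and Id2 had a difference of -0.08 (adjusted p = 0.844 from limma); after centring, Id4 was at -0.10 and Id2 at 0.13. Dlx5, a homeobox gene that BMPs induce in bone, varied widely, at 7.03, 1.51, 0.16 and 3.25 TPM in controls 1 to 4 and at 0.209, 1.25, 0.127 and 0.058 TPM in Siglec-XII samples 1 to 4. Control 3 lay among the Siglec-XII samples, and the difference was -1.23 with a 95% interval from -2.44 to -0.02 (adjusted p = 0.515 from limma). Dlx5 passed the filter through controls 1, 2 and 4 and Siglec-XII sample 2. Id4 passed it through controls 1 to 4 and Siglec-XII samples 1 and 2, and the controls alone would have sufficed. None of the 3 was at or under the limit on unadjusted P without control 1, control 4, Siglec-XII sample 3 or Siglec-XII sample 4.

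Of the other ligands, Bmp8a averaged 2.04 TPM in controls against 2.40 in Siglec-XII samples, Bmp1, a protease rather than a ligand despite its name, at 1.69 and 1.08, and Bmp6 at 0.716 and 0.297. Of the extracellular modulators, Nbl1, an antagonist of the family of Grem1, was the most abundant, with 41.5 and 44.3 TPM. Rgmb, a BMP co-receptor, was at 19.7 and 17.0 TPM. The receptors Acvr1, Acvr2a and Bmpr2 averaged 9.08, 6.53 and 4.503 TPM in controls against 7.15, 5.73 and 3.02 TPM in the other group. All 5 tested receptors had differences below 0, 3 of them after centring, beside 78.1% and 38.5% of all tested genes. Bmpr2, the BMP type II receptor, had the largest of these, -0.52 (95% interval -1.10 to 0.07, adjusted p = 0.515 from limma), and -0.06 without Siglec-XII samples 3 and 4. Among the transducers, Smad4 was at 64.7 and 61.6 TPM and Smad1 at 27.2 and 25.2, and the antiproliferative gene Tob1, whose product binds SMADs, was at 77.0 and 80.9. Among the targets, Tsc22d1 was at 205 and 178 TPM, Id2 at 27.7 and 26.4 and Atoh8, a basic helix-loop-helix gene, at 2.61 and 2.09.

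**Figure D5:**
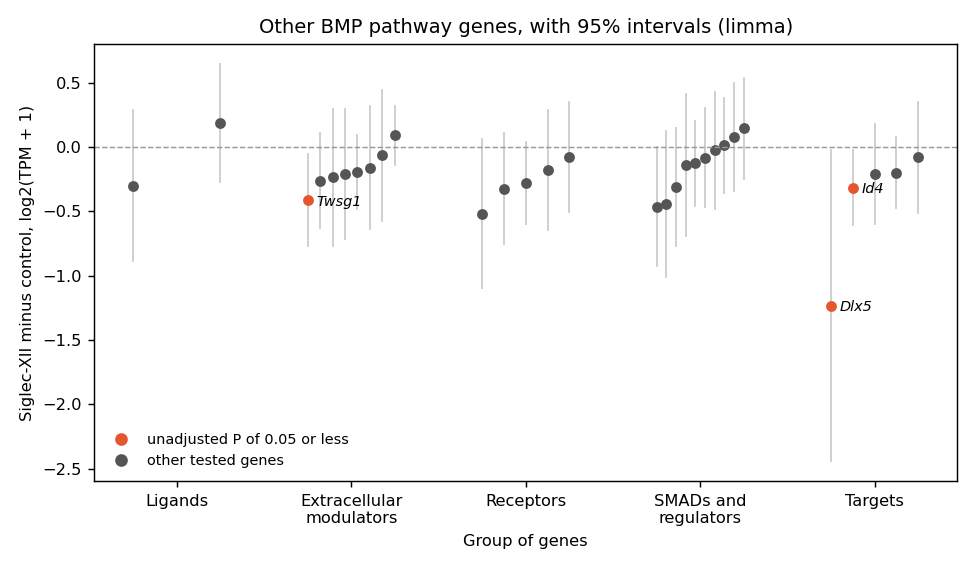
Siglec-XII minus control on the log2(TPM + 1) scale for the 30 other tested genes of the pathway, in 5 groups, with 95% intervals from limma. Most points lie below 0, as do most tested genes of these samples, and only Twsg1, Id4 and Dlx5 (red) had an unadjusted P of 0.05 or less.

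In bulk tissue, fewer cells of a type and less RNA per cell cannot be told apart. Markers of several cell types, among them the mesenchymal and muscle cells known to supply Bmp4 and Grem1, were summed per sample. The sums do not separate cell number from RNA per cell. The 7 smooth muscle markers (Acta2, Actg2, Myh11, Des, Tagln, Cnn1 and Smtn) summed to between 643 and 1024 TPM in controls and to between 309 and 662.5 TPM in Siglec-XII samples, with sample 4 lowest. All 7 had a difference below 0 before and after centring, beside 78.1% and 38.5% of all tested genes. Before centring, 4 had an unadjusted P of 0.05 or less (limma), where 7.67% of all tested genes were lower at this limit. After it, 4 did so, where 2.16% of all tested genes were lower. The 6 endothelial markers summed to between 7.20 and 9.58 TPM in controls. In Siglec-XII samples the sums were between 5.18 and 6.95 TPM, without overlap, and how often sums of other genes do so was not computed. Of the 3 tested markers, Pecam1 alone was lower without overlap, as were 4.06% of all tested genes. All 3 markers that were tested had differences below 0, but after centring Vwf was at 0.02 and Lyve1 at 0.13. Pecam1 had an unadjusted P of 0.05 or less (limma) with either scaling. Its difference was -0.59, or -0.38 after centring (adjusted p = 0.515 from limma before centring). The sums of the 8 fibroblast markers overlapped, between 13.4 and 41.7 TPM in controls and between 17.4 and 74.6 in Siglec-XII samples. The highest was in Siglec-XII sample 4, where Dcn alone was at 57.1 TPM, against at most 21.9 in controls. All 5 markers that were tested had differences below 0, none with an unadjusted P of 0.05 or less (limma), and all were above 0 after centring. Of the 8, Pdgfra and Foxl1, which mark the subepithelial cells known for Bmp4, were under 1 TPM in every sample. The 5 markers of the crypt base and cycling cells (Lgr5, Axin2, Ascl2, Mki67 and Top2a) all had differences below 0, before and after centring. Before it, 3 of them had an unadjusted P of 0.05 or less (limma), again beside 7.67% of all tested genes lower at this limit. After it, 2 of them did so, again beside 2.16% of all tested genes. The 5 summed to between 50.7 and 113 TPM in controls and to between 26.6 and 72.2 in Siglec-XII samples. Of the 8 epithelial markers, 4 were above and 4 below 0, and the sums overlapped. After centring all 8 were above 0. Of these, 2 then had an unadjusted P of 0.05 or less (limma), beside 8.64% of all tested genes higher at this limit. For the 5 goblet cell markers (Muc2, Clca1, Tff3, Fcgbp and Zg16), control sums ran from 8343 to 10230 TPM. Those of the Siglec-XII group ran from 9486 to 13660 TPM, highest in samples 3 and 4, as Id3 was. Zg16, at 6545 and 7586 TPM, and Tff3, at 3742 and 4480 TPM, were the largest parts of these 2 sums. Muc2 was at 66.8 and 71.7 TPM there, under its control mean of 93.4. Clca1 and Fcgbp were under their control means in sample 3 and above them in sample 4. Of the 5 differences, 3 were above and 2 below 0, and all 5 were above 0 after centring. None had an unadjusted P of 0.05 or less (limma) with either scaling. The 6 surface colonocyte markers (Car1, Car4, Slc26a3, Aqp8, Guca2a and Guca2b) summed to between 4989 and 6354 TPM in controls and to between 4717 and 6268 in Siglec-XII samples. Their differences were above 0 in 2 and below 0 in 4, and above 0 in all 6 after centring. Both tested adipocyte markers, Adipoq and Cfd, were above 0 with either scaling. No tested colonocyte or adipocyte marker had an unadjusted P of 0.05 or less (limma) with either scaling. The 6 immune markers summed to between 3.497 and 17.6 TPM in controls and to between 2.68 and 3.92 TPM in Siglec-XII samples, and both that were tested, Cd68 and Jchain, had differences below 0 before and after centring, neither with an unadjusted P of 0.05 or less (limma). None of these lists had a marker at 0 in every sample. The smooth muscle and crypt lists and the 2 tested immune markers thus had the direction of Bmp4 and Grem1 with either scaling. So did Uchl1 (-0.37, and -0.15 after centring), the 1 tested gene of 7 markers of enteric neurons and glia. The part of all these lists in the values of the BMP genes was not tested.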

How the data were processed

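Whole distal colon was profiled by RNA sequencing in 4 samples of each group, and the authors deposited 1 value per gene and sample, log2(TPM + 1), made with kallisto. The labels name kallisto 0.45.0 and GRCm38, and the paper's Methods another version and a human reference, while 98.3% of the gene identifiers are in GENCODE M21 of GRCm38. TPM sums to 1000000 per sample and keeps no depth, so counting intervals were left out and precision rests on the sample number. Gene counts and DESeq2, which the Methods name, were not used here.

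Groups and sample numbers came from the labels, which give no batch. Genes reaching 1 TPM in 4 or more samples were fitted with limma 3.58.1 (R 4.3.3) by group, using the trended empirical Bayes option, and p-values were adjusted by Benjamini-Hochberg over all of them. The fit was tested on simulated data. A log2 difference of 1 stood for a fold-change of 2. Alternatives were quantile normalization, median centring, a pseudocount of 0.1, a minimum of 5 TPM or no minimum, array weights, no trend, the sample number as a block, and each sample left out. The fit without Siglec-XII samples 3 and 4 was added after the data were seen. Members and gene lists were chosen with earlier results of these data known. The text names all members, further pathway genes with unadjusted P ≤ 0.05 and the 3 most abundant of each list, and, after their values were seen, Chrdl1, Gdf11 and the genes that overlap members. A listed gene is not reported here. Promoters are those of RefSeq on GRCm38.p6, which held 4 of the 9 members, and transcripts those of GENCODE M21. Figures were drawn with matplotlib 3.10.9 in Python 3.11.15.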

Additional observations from a re-analysis of the deposited data

Results flagged for a closer look

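Among 52 groups of 4 samples examined for the named genes, 1 held a sample far from the other 3, where chance gives about 2.6. It was Acvr2a, a type II receptor for BMPs and activins, in control 1, with a gap to the nearest control of 0.91 of the range of the controls. Its level was 4.76 TPM in control 1 and 7.26, 6.99 and 7.11 TPM in controls 2 to 4.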

How the results depend on the processing

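Over the alternatives, 107 of 117 recomputed differences of the 7 genes kept their direction, and 0 of the 117 passed an adjusted p of 0.05 (limma). The reversed ones were Bmpr1a with quantile normalization (0.0037), median centring (0.025), array weights (0.023) and without Siglec-XII samples 3 and 4 (0.13), Bmp3 with array weights (-0.10), without control 1 (-0.13), without Siglec-XII sample 4 (-0.03) and without Siglec-XII samples 3 and 4 (-0.012), Bmp2 without control 1 (-0.10), and Id3 without Siglec-XII samples 3 and 4 (-0.17), and the cause was not tested. Leaving out 1 sample gave from -0.13 to 0.16 for Bmp3 and from -0.10 to 0.32 for Bmp2. The 1 gene of the 7 at unadjusted P ≤ 0.05 became 0 with a minimum of 5 TPM, which removes Bmp4, 3 with array weights, 0 without Siglec-XII samples 3 and 4, and 1 to 2 when single samples were left out, the 2 being Bmp4 and Id1 without Siglec-XII sample 1. With a fold-change of 2 as well, the count of 0 became 1 with a pseudocount of 0.1, where Bmp4 differed by -1.19. The count of genes whose groups do not overlap, 0, was 0 to 2 when single samples were left out. The 2 were without Siglec-XII sample 1, where the groups did not overlap in 12.5% of all tested genes.

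Of the other pathway genes, the 3 at unadjusted P ≤ 0.05 became 1 with quantile normalization, 5 with median centring, 1 with a minimum of 5 TPM, 7 with no filter, 1 with the replicate block, 0 without Siglec-XII samples 3 and 4, and 0 to 7 when single samples were left out, being 0 without control 4, Siglec-XII sample 3 or Siglec-XII sample 4 and 7 without Siglec-XII sample 1. Across these settings the share of all tested genes at unadjusted P ≤ 0.05 ran from 2.75% without Siglec-XII samples 3 and 4 to 18% without Siglec-XII sample 1. Adjusted p ≤ 0.05 was reached by 0 of them in every setting. The correlations of deviations from the group means between samples of the same number were -0.165, -0.204, 0.103 and -0.002, so the numbers were not read as pairs. In the fit with the replicate block, Bmp4 stayed the 1 of the 7 genes at unadjusted P ≤ 0.05. Depth is unknown, so whether Nog, Bmp7 or Bmp4 under 1 TPM rest on many reads could not be given.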

Other observations

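Under the filter on low values, the BMP genes Chrdl1 and Gdf11 had all Siglec-XII values beneath all control values. They were named after their values were seen. Among all 18188 genes under the filter and above 0, the groups did not overlap in 2.59%, and Siglec-XII samples were the lower in 2.18%. Chrdl1, a chordin-like antagonist, was at 0.877, 0.478, 0.543 and 0.697 TPM in controls 1 to 4 and between 0.346 and 0.421 TPM in Siglec-XII samples. Gdf11, a ligand of the TGF-β superfamily, was between 0.163 and 0.221 TPM in controls and between 0.090 and 0.132 in Siglec-XII samples. The depth behind values this low is unknown.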
